A study of Homo sapiens with 8 samples.

Results

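The RAB small GTPases were the 59 gene symbols of the deposited count table, among 23346 symbols, that consist of RAB, a number and at most 1 further letter. RNA was sequenced from 22RV1 cells, a human prostate cancer line, 36 h after transfection in suspension with 20 nM of a miR-194 mimic (4 libraries) or 20 nM of a negative control (4 libraries). A mimic is a synthetic duplex that supplies the mature microRNA. Both groups were the same line, grown in RPMI1640 with serum, and the labels give the same neighbouring passages for every library. The design is thus 1 cell line and 1 time point, and the labels do not say whether the replicates came from separate cultures, so p-values measure the spread between these libraries, which may be technical. Library totals ran from 32485036 to 47248241 counts. Of the 59 RAB genes, 53 passed the filter on low counts and were tested.

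RAB proteins are molecular switches that sit on membranes: bound to GTP they recruit the effectors that form, move, tether and fuse vesicles, and bound to GDP they are extracted from the membrane by GDI. Guanine nucleotide exchange factors (GEFs) load the GTP, and GTPase-activating proteins (GAPs) speed its hydrolysis. Each RAB marks a step, such as RAB1 and RAB2 between the endoplasmic reticulum and the Golgi, RAB5 on early endosomes, RAB7 on late endosomes, RAB11 on recycling endosomes, and RAB3 and RAB27 on secretory vesicles, and many exist as paralogs. MicroRNAs such as miR-194 pair through their seed with sites in messenger RNAs, mostly in 3′ UTRs, and lower the amount or translation of those messages.

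The mature miR-194-5p sequence of RefSeq (GRCh38.p14), encoded by MIR194-1 on chromosome 1 and MIR194-2 on chromosome 11, is shown with its seed, bases 2 to 8, in capitals, because the sites below were derived from it.
hsa-miR-194-5p: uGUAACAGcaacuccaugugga
An 8mer site is CTGTTACA, a 7mer-m8 site CTGTTAC, a 7mer-A1 site TGTTACA and a 6mer site TGTTAC, each read on the transcript strand alone, with a shorter site counted only where no longer one covers it. For 9 of the 10 RAB genes with lower RNA after the mimic and an 8mer or 7mer, 1 site is given, or for RAB3B both 8mers, with flanking bases, the site in capitals and the coordinates those of the capitals in GRCh38, the build of the annotation used for sites (GENCODE release 29). The sites of RAB2A, the further 7mers of RAB3B, RAB6B, RAB27B and RAB23, and 6mers are not shown.
RAB3B, 8mer, chr1:51919861-51919868, minus strand: tctgcttctccCTGTTACAcactgtccgct
RAB3B, 8mer, chr1:51919827-51919834, minus strand: gcccactctccCTGTTACAcactgcccaca
RAB33B, 8mer, chr4:139475866-139475873, plus strand: gaatagtgtcaCTGTTACAtttcccccatg
RAB35, 8mer, chr12:120095286-120095293, minus strand: tgcctgtcccaCTGTTACAcgcatgaatgg
RAB6B, 7mer-m8, chr3:133828594-133828600, minus strand: actcttaacggCTGTTACttaaacaactat
RAB27B, 7mer-m8, chr18:54892140-54892146, plus strand: caagatatgtcCTGTTACtaagtatctccc
RAB31, 7mer-m8, chr18:9861403-9861409, plus strand: gtgaaaccactCTGTTACctttctgtattg
RAB13, 7mer-m8, chr1:153981767-153981773, minus strand: actgatttattCTGTTACtagatcaggttt
RAB12, 7mer-A1, chr18:8638811-8638817, plus strand: ttatttattaaTGTTACAtaatggtagaat
RAB23, 7mer-A1, chr6:57190383-57190389, minus strand: ctgtcatggtaTGTTACAaggttttcagca
RAB14 had an 8mer and a 7mer-A1 in its coding sequence, and no 8mer or 7mer in its 3′ UTR. The coding sequences of RAB6C, RAB9A, RAB10, RAB26 and RAB28 held a 6mer, and of these RAB10 was higher. The share of all genes with a coding match was not counted, and the 8mer of RAB14 alone is shown.
RAB14, coding 8mer, chr9:121190607-121190614, minus strand: gcgatttagggCTGTTACAcggagctacta
A 7mer alone did not go with a lower level in every member. RAB3D and RAB36 were higher, and RAB5A, RAB8B, RAB21, RAB22A, RAB39A and RAB43 were not called. Sites of 4 of these genes are shown. Those of RAB8B (2 7mers), RAB21 (4), RAB39A (2) and RAB43 (1) are not shown.
RAB3D, 7mer-A1, chr19:11322645-11322651, minus strand: aataaggcaaaTGTTACAttgaatgatttg
RAB36, 7mer-m8, chr22:23164258-23164264, plus strand: gtggtgtccagCTGTTACcagcttctgagc
RAB5A, 7mer-m8, chr3:19984797-19984803, plus strand: tacaaaatgtaCTGTTACtaaaacagctaa
RAB22A, 7mer-m8, chr20:58360107-58360113, plus strand: ttccttggtttCTGTTACcactgttagagg

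The libraries were checked before the members were compared. All 7 luminal prostate markers were expressed, with summed levels of 4284 to 4594 counts scaled to library size (CPM, counts per 1e6 reads counted) in mimic libraries and 4031 to 4240 CPM in control libraries, and 4 of the 7 were higher. Endothelial PECAM1 and CDH5 had no count in any library. The 5 leukocyte markers summed to 6.45 to 9.04 CPM in mimic and 4.66 to 5.18 CPM in control libraries, almost all of it CD68, and the 5 fibroblast markers to 17.0 to 19.3 CPM in mimic and 15.4 to 16.7 CPM in control libraries. The 5 neuroendocrine markers summed to 357 to 389 CPM in mimic and 355 to 380 CPM in control libraries. The part of these differences in the RAB values was not tested. Replicates 1 and 2 of both groups deviated from their group means together, as did replicates 3 and 4, so for called members whose log2 fold change differed by over 1.5 times between these pairs, or lost its call in either, the values within the pairs are also given. In bulk RNA, fewer cells that express a gene and less RNA per cell cannot be told apart.

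RAB genes moved in both directions. Of the 53 tested, 14 were higher and 14 lower with the mimic (adjusted p below 0.05 over all 14977 genes tested), so 52.8% were called, against 38.1% of all genes tested. The share called higher was 26.4%, against 18.3% of all genes, and the share called lower was 26.4%, against 19.9%. Past an absolute log2 fold change of 0.3, 9 of the 53 RAB genes were called lower, beside 11.7% of all genes. Called higher past it were 3 of the 53, near the 7.65% of all genes. The median log2 fold change of the tested RAB genes was -0.01, beside 0.00 over all genes tested. Over all 59 genes the summed level was 3894 ± 45.2 CPM in mimic and 3789 ± 16.3 CPM in control libraries (SD, n = 4 each).

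The 4 mimic values did not overlap the 4 control values in 32 RAB genes (60.4% of the tested, against 36.9% of all genes), and 27 of these were called (33.6% of all genes were called without overlap). RAB11B was the 1 called member whose groups overlapped, and RAB8B, RAB18, RAB22A, RAB28 and RAB40A were separate between groups without being called. The count of higher members rested partly on single libraries: it was 9 without negative control replicate 1 and also 9 without negative control replicate 4, whereas the count of lower members was 13 or 14 without any 1 library. Over all genes 32.2% and 33.7% were called without these 2 libraries, 35.2% and 33.2% without control replicates 2 and 3, and 34.7%, 36.3%, 33.3% and 35.9% without mimic replicates 1 to 4. Replicates 1 and 2 alone gave 12 RAB genes higher and 13 lower (33.9% of all genes called), and replicates 3 and 4 alone gave 11 higher and 14 lower (33.6% of all genes called). A fit with the replicate number as a block called 17 RAB genes higher and 19 lower, where 50.9% of all genes were called.

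**Figure D1:**
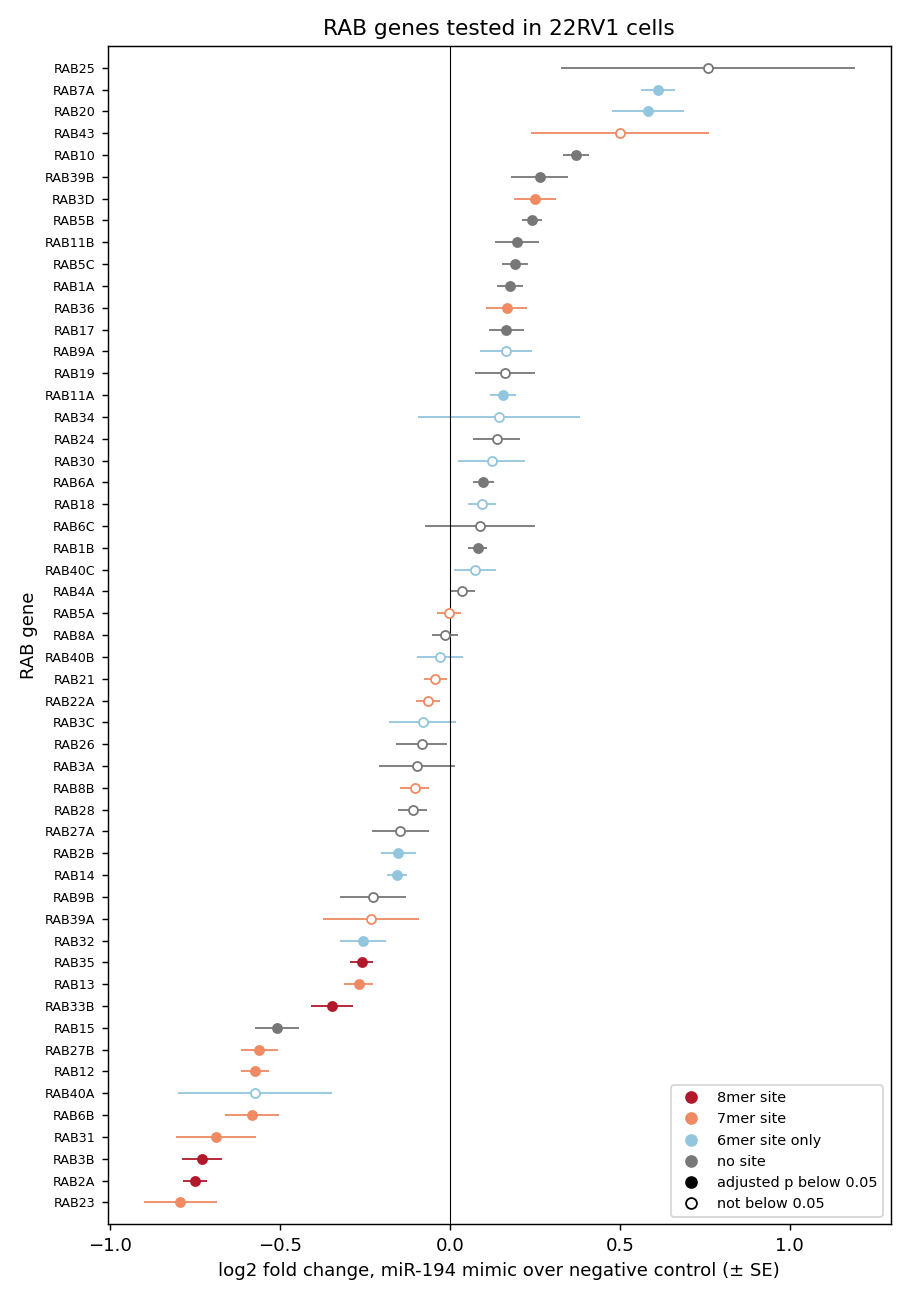
Log2 fold change of the 53 tested RAB genes, miR-194 mimic over negative control, with the standard error as a bar and n = 4 libraries per group; filled points have an adjusted p below 0.05 and colours give the best miR-194-5p site in the longest 3′ UTR. All 4 genes with an 8mer lie on the lower side, from -0.75 to -0.26.

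In the traffic between endoplasmic reticulum and Golgi, RAB2A fell while both RAB1 genes rose slightly. RAB2A, which acts on membranes between the endoplasmic reticulum and the Golgi, had 61.9, 62.1, 64.3 and 65.3 CPM in mimic libraries, against 107, 104, 108 and 108 CPM in control libraries. The groups were far apart and each was tight, and the log2 fold change was -0.75 ± 0.03 (SE; adjusted p = 2.89e-08). RAB2A carries an 8mer and a 7mer-A1 in its 3′ UTR. Its paralog RAB2B, with only a 6mer, averaged 26.4 ± 0.249 CPM in mimic and 29.4 ± 1.82 CPM in control libraries (log2 fold change -0.15 ± 0.05 SE, adjusted p = 0.0366). Per kilobase of exon, RAB2A made up 60.5 ± 0.583% of the RNA of both RAB2 genes in mimic libraries and 69.9 ± 0.961% in control libraries.

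RAB1B and RAB1A, which drive transport towards the Golgi, were among the 5 most abundant RAB genes per length. RAB1B, the most abundant, had 299, 298, 306 and 309 CPM in mimic libraries, against 286, 289, 282 and 288 CPM in control libraries. The groups were separate by a narrow margin (log2 fold change 0.08 ± 0.03 SE, adjusted p = 0.0412). RAB1A had 228, 228, 242 and 217 CPM in mimic libraries, against 198, 206, 201 and 205 CPM in control libraries, again without overlap (log2 fold change 0.18 ± 0.04 SE, adjusted p = 0.00298). CEP68, on the opposite strand over 22.9% of the RAB1A exon bases, was lower (log2 fold change -0.21). RAB33B, a Golgi RAB that also binds the autophagy factor ATG16L1, had 31.8, 32.3, 27.1 and 28.5 CPM in mimic libraries, against 40.2, 38.2, 37.5 and 36.3 CPM in control libraries. It was lower with no overlap (log2 fold change -0.35 ± 0.06 SE, adjusted p = 0.000969), and carries 1 8mer in its 3′ UTR. RAB18, found on the endoplasmic reticulum and lipid droplets, and RAB30, RAB43 and RAB19 were not called.

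The RAB6 genes split. RAB6A, the widely expressed Golgi form that directs retrograde transport, had 197, 192, 200 and 191 CPM in mimic libraries, against 181, 181, 185 and 180 CPM in control libraries. All mimic values lay above all control values (log2 fold change 0.10 ± 0.03 SE, adjusted p = 0.0218). RAB6B, known as the form enriched in neurons, had 5.66, 6.57, 5.49 and 5.596 CPM in mimic libraries, against 9.17, 8.69, 8.86 and 8.08 CPM in control libraries. Here every mimic value lay below every control value (log2 fold change -0.58 ± 0.08 SE, adjusted p = 0.000154). RAB6B carries a 7mer-m8 and a 7mer-A1, while no site was found in the RAB6A 3′ UTR. RAB6C, an intronless copy of RAB6A, stood at 0.616 to 0.775 CPM in mimic and 0.586 to 0.719 CPM in control libraries and was not called. Of its 50-base words, 55.8% also occur in RAB6A or RAB6D, so how its reads were assigned bears on this value.

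Among early endosome RABs, RAB5B and RAB5C were higher and RAB5A was not. RAB5B had 246, 239, 246 and 248 CPM in mimic libraries, against 208, 201, 209 and 209 CPM in control libraries (log2 fold change 0.24 ± 0.03 SE, adjusted p = 7.09e-05). RAB5C averaged 148 ± 6.29 CPM in mimic and 129 ± 2.65 CPM in control libraries (log2 fold change 0.19 ± 0.04 SE, adjusted p = 0.00181). The groups of both genes were separate. RAB5A had 80.1, 76.5, 80.2 and 76.4 CPM in mimic libraries, against 76.8, 77.1, 79.3 and 80.7 CPM in control libraries, which overlap throughout, and it is the RAB5 gene with a 7mer-m8. The ratio of RAB5A to RAB5B changed by -0.24 on the log2 scale, mimic minus control, and that of RAB5A to RAB5C by -0.19, each without overlap.

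RAB31 and RAB22A, close relatives that act in endosomal traffic, gave different calls. RAB31 had 2.42, 2.91, 2.26 and 2.40 CPM in mimic libraries, against 4.16, 4.50, 3.95 and 3.40 CPM in control libraries, a separate and lower group (log2 fold change -0.69 ± 0.12 SE, adjusted p = 0.000747). RAB22A, with 63.0 to 65.2 CPM in mimic and 65.2 to 69.3 CPM in control libraries, was not called (log2 fold change -0.06 ± 0.04 SE, adjusted p = 0.175). Both carry a 7mer-m8. RAB20, a RAB of endosomes and phagosomes, had 2.88, 3.07, 3.40 and 3.51 CPM in mimic libraries, against 2.01, 2.06, 2.34 and 2.19 CPM in control libraries. It was higher at a low level, without overlap (log2 fold change 0.58 ± 0.11 SE, adjusted p = 0.00114). RAB21, an early endosome RAB that binds integrins, was not called although its long 3′ UTR holds 4 7mers.

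On the late endosome, RAB7A rose most among the called RAB genes and from a high level. RAB7A, which directs fusion with lysosomes, had 232, 219, 229 and 206 CPM in mimic libraries, against 148, 157, 136 and 140 CPM in control libraries. The lowest mimic library lay well above the highest control library, and the fold was 1.53 (log2 fold change 0.61 ± 0.05 SE, adjusted p = 3.15e-06). Its 3′ UTR holds 2 6mers and no longer site. RAB36, a relative of RAB34 with a 7mer-m8, was slightly higher at 12.7 ± 0.688 CPM in mimic and 11.3 ± 0.160 CPM in control libraries (log2 fold change 0.17 ± 0.06 SE, adjusted p = 0.0456). RAB9A and RAB9B, which return cargo from late endosomes to the Golgi, and RAB34 were not called.

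**Figure D2:**
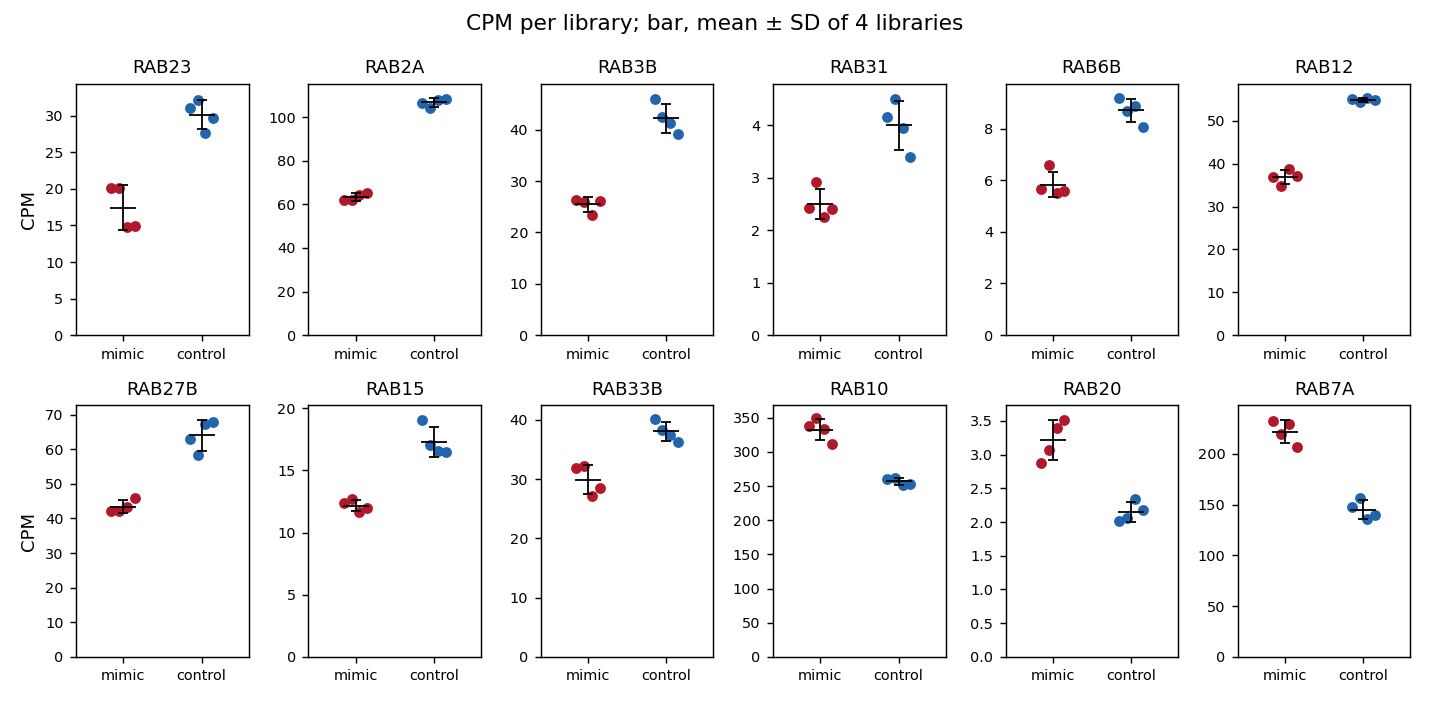
CPM in each library, mimic left and control right of each panel, for the 12 RAB genes called with an absolute log2 fold change of at least 0.3; horizontal bars give the mean and whiskers the SD of 4 libraries, and each axis starts at 0. In all 12 panels the mimic and control values are separate, for example RAB7A at 206 to 232 CPM in mimic libraries against 136 to 157 CPM in control libraries.

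The recycling and surface transport RABs held both large falls and rises. RAB12, which takes transferrin receptor from recycling endosomes towards lysosomes, had 36.8, 34.7, 38.9 and 37.2 CPM in mimic libraries, against 55.1, 54.3, 55.4 and 54.9 CPM in control libraries. Its control libraries were nearly equal and its mimic libraries all lower (log2 fold change -0.57 ± 0.04 SE, adjusted p = 1.06e-06). RAB15, known from transferrin receptor recycling, had 12.3, 12.7, 11.7 and 11.96 CPM in mimic libraries, against 19.1, 17.0, 16.6 and 16.5 CPM in control libraries. It was lower without overlap (log2 fold change -0.51 ± 0.06 SE, adjusted p = 8.57e-05), and no site of any class was found in its 3′ UTR.

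RAB10, which acts in exocytosis of GLUT4 vesicles and in polarised transport, had 338, 349, 333 and 311 CPM in mimic libraries, against 261, 262, 252 and 254 CPM in control libraries. Every mimic library was higher (log2 fold change 0.37 ± 0.04 SE, adjusted p = 1.65e-05). RAB13, a relative that acts at tight junctions, had 221, 230, 243 and 244 CPM in mimic libraries, against 272, 274, 298 and 285 CPM in control libraries. Every mimic library was lower (log2 fold change -0.27 ± 0.04 SE, adjusted p = 0.000451). RAB13 shares 56.3% of its 50-base words with other annotated genes, among them AL358472.6, which overlaps it on the same strand. RAB5C shares 36.2% with AC099811.2. Neither AL358472.6 nor AC099811.2 is a symbol of the deposited table, so no reads were counted under these names. A partner is in the table for RAB24 (69.4% shared with MXD3), RAB43 (90.9%, with ISY1-RAB43 among the partners), RAB6A (21.6% shared with RAB6C or RAB6D) and RAB4A (20.5%, SPHAR among them). The counts of RAB24, RAB43, RAB6A and RAB4A thus depend on how shared reads were treated.

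The RAB11 genes, RAB11A and RAB11B, rose together, with log2 fold changes of 0.16 ± 0.04 (SE, adjusted p = 0.00691) and 0.20 ± 0.07 (SE, adjusted p = 0.0343). RAB17, a RAB of polarised epithelia, was higher by 0.17 ± 0.05 on the log2 scale (SE, adjusted p = 0.0225). RAB35, which returns cargo from endosomes to the surface, averaged 129 ± 2.71 CPM in mimic and 154 ± 4.76 CPM in control libraries (log2 fold change -0.26 ± 0.03 SE, adjusted p = 0.000109). RAB14, which acts between Golgi and endosomes, averaged 178 ± 4.19 CPM in mimic and 199 ± 1.64 CPM in control libraries (log2 fold change -0.16 ± 0.03 SE, adjusted p = 0.00169). RAB4A, RAB8A, RAB8B and RAB25 were not called. RAB25 stood at 0.228, 0.124, 0.476 and 0.681 CPM in mimic libraries, against 0.198, 0.239, 0.255 and 0.238 CPM in control libraries, so that only mimic replicates 3 and 4 lay above the controls; with replicates 3 and 4 alone its log2 fold change was 1.24 (adjusted p = 0.0237).

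Of the secretory RABs, RAB3B and RAB27B fell and RAB3D rose. RAB3B, a RAB of regulated exocytosis, had 26.4, 26.0, 23.4 and 26.0 CPM in mimic libraries, against 46.0, 42.4, 41.2 and 39.2 CPM in control libraries. The groups did not come close (log2 fold change -0.73 ± 0.06 SE, adjusted p = 2.55e-06). Its pair of 8mers starts at bases 59 and 93 of a 3′ UTR of 11971 bases, with a 7mer-m8 further on. RAB3D, found on secretory granules of gland cells, had 116, 115, 130 and 133 CPM in mimic libraries, against 98.9, 96.8, 111 and 109 CPM in control libraries. Replicates 3 and 4 were higher than 1 and 2 in both groups, and the groups still did not overlap (log2 fold change 0.25 ± 0.06 SE, adjusted p = 0.00712). Within replicates 1 and 2 the RAB3D log2 fold change was 0.24, and within replicates 3 and 4 it was 0.26.

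RAB3A, the synaptic vesicle form, had 18.4 to 23.3 CPM in mimic and 19.1 to 25.3 CPM in control libraries, and RAB3C had 5.23 to 6.57 CPM in mimic and 5.50 to 6.75 CPM in control libraries. Neither was called. Per kilobase, RAB3D supplied 66.6 ± 3.67% of the RNA of the 4 RAB3 genes in mimic and 59.4 ± 4.57% in control libraries, and RAB3B supplied 4.72 ± 0.311% in mimic and 8.28 ± 0.434% in control libraries. RAB27B, which docks secretory vesicles and exosome-bearing endosomes, had 42.1, 42.1, 43.3 and 46.0 CPM in mimic libraries, against 63.0, 58.2, 67.3 and 67.7 CPM in control libraries. Its groups were separate (log2 fold change -0.56 ± 0.05 SE, adjusted p = 1.09e-05), and it carries 2 7mer-m8 sites. RAB27A, with no site, and RAB26, of secretory granules, were not called.

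**Figure D3:**
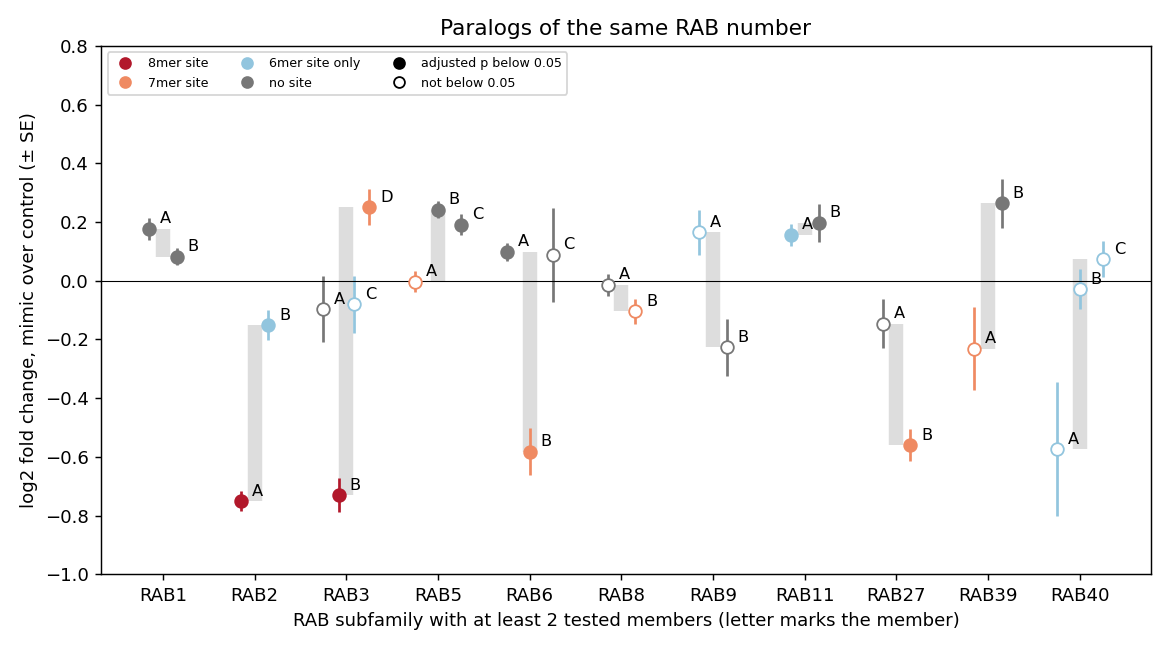
Log2 fold change of paralogs that share a RAB number, miR-194 mimic over negative control, with the standard error as a bar and n = 4 libraries per group; letters name the member, grey bars span each subfamily, filled points have an adjusted p below 0.05 and colours give the best site. The RAB3 and RAB6 subfamilies hold members called on both sides of 0, RAB3B at -0.73 with RAB3D at 0.25, and RAB6B at -0.58 with RAB6A at 0.10.

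Among the remaining RABs, RAB23, known from mouse embryos to restrain Hedgehog signalling, had the largest fall of the tested members that were called. It had 20.1, 20.1, 14.7 and 14.9 CPM in mimic libraries, against 31.1, 32.2, 27.6 and 29.7 CPM in control libraries. Mimic replicates 3 and 4 were lower than 1 and 2, and the groups did not overlap (log2 fold change -0.79 ± 0.11 SE, adjusted p = 0.000204). Within replicates 1 and 2 its log2 fold change was -0.66, and within replicates 3 and 4 it was -0.95. RAB23 carries 3 7mer-A1 sites. BAG2 lies on the opposite strand over 57.7% of its exon bases and was not called (log2 fold change 0.04), and whether the counting used strand is not stated in the labels.

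RAB32, which acts on mitochondria and on organelles related to lysosomes, was lower at 6.78 ± 0.297 CPM in mimic and 8.11 ± 0.328 CPM in control libraries (log2 fold change -0.26 ± 0.07 SE, adjusted p = 0.0110). RAB39B, a form enriched in neurons, had 26.0, 23.8, 20.8 and 19.8 CPM in mimic libraries, against 19.2, 19.6, 17.8 and 18.6 CPM in control libraries. It was higher, with a lowest mimic value just above the highest control value (log2 fold change 0.26 ± 0.08 SE, adjusted p = 0.0260). Its paralog RAB39A, with a 7mer-m8 and a 7mer-A1, had 14.7 to 21.5 CPM in mimic and 17.6 to 23.5 CPM in control libraries and was not called. RAB24, RAB28, RAB40A, RAB40B and RAB40C were not called either.

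With the replicate number as a block, 8 of the 25 uncalled members passed. The block called 50.9% of all genes, beside 38.1% without it. RAB9A (0.16), RAB18 (0.09) and RAB43 (0.53) were then higher, and RAB8B (-0.10), RAB9B (-0.22), RAB27A (-0.14), RAB28 (-0.11) and RAB39A (-0.23) lower, each value a log2 fold change, with adjusted p from 0.00234 for RAB39A to 0.0402 for RAB9A. No call of the other 28 was lost. Several of the small changes depended on which libraries entered. Of the 17 alternative fits, the call was lost in 10 for RAB2B, 9 for RAB1B, 9 for RAB36, 7 for RAB11B, 5 for RAB39B, 4 for RAB6A, 3 for RAB17 and 1 for RAB32, with the direction kept. Within replicates 1 and 2, and then within replicates 3 and 4, the log2 fold change was -0.08 and -0.22 for RAB2B, 0.05 and 0.11 for RAB1B, 0.15 and 0.23 for RAB5C, 0.15 and 0.24 for RAB11B, and 0.36 and 0.16 for RAB39B. For RAB6A it was 0.10 in each, for RAB36 0.18 and 0.16, and for RAB32 -0.30 and -0.22. RAB1B, RAB6A and RAB36 passed in neither pair, RAB2B passed in replicates 3 and 4 alone, and RAB11B, RAB32 and RAB39B in replicates 1 and 2 alone.

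Below the filter lay RAB4B with no count in any library, RAB38 and RAB42 with at most 1 count, RAB41 with 0 to 4, RAB37 with 1 to 5 and RAB33A with 4 to 13. RAB4B shares 66.0% of its 50-base words with its readthrough genes RAB4B-EGLN2 and MIA-RAB4B, both likewise without a count. Its count thus depends on how shared reads were treated, and does not show that RAB4B was silent.

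Levels per length spanned a wide range, from 0.0944 CPM per kilobase of exon for RAB40A to 147 CPM per kilobase for RAB1B as means over the libraries. After RAB1B came RAB13 with 85.2 ± 4.09 CPM per kilobase in mimic and 103 ± 4.27 in control libraries, RAB10 with 91.6 ± 4.39 in mimic and 70.8 ± 1.44 in control libraries, RAB7A with 81.6 ± 4.24 in mimic and 53.4 ± 3.36 in control libraries, and RAB1A with 69.1 ± 3.17 in mimic and 61.1 ± 1.09 in control libraries. In control libraries the order RAB13, RAB10, RAB1A and RAB7A was wider than the SDs. In mimic libraries the means of RAB10 and RAB13, and those of RAB13 and RAB7A, lay within the sum of their SDs, so their order is not resolved. Of these 5, RAB13 alone was lower with the mimic.

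**Figure D4:**
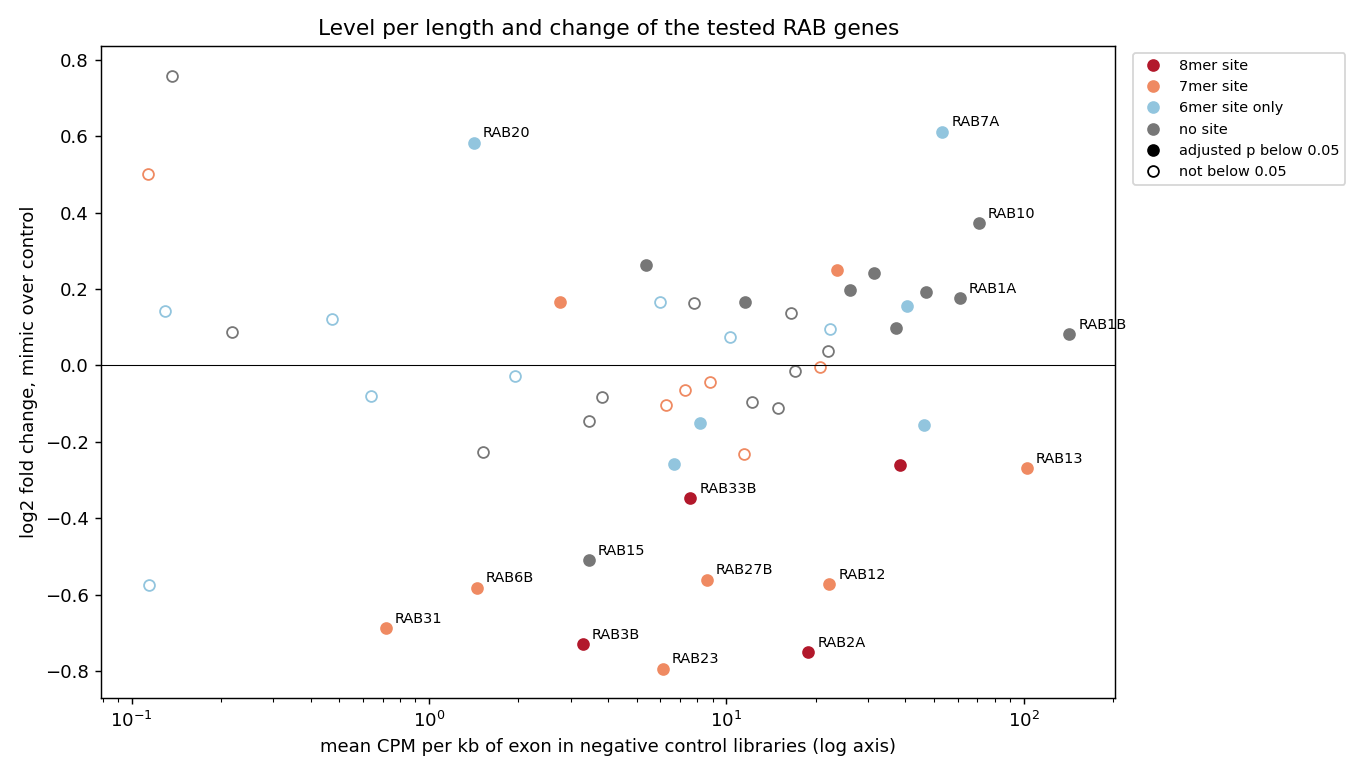
Mean CPM per kilobase of exon in the 4 negative control libraries (log axis) against the log2 fold change, mimic over control, of the 53 tested RAB genes; filled points have an adjusted p below 0.05, colours give the best site, and names mark the 12 genes called past 0.3 and the 5 most abundant. The 9 genes that fell past 0.3 lie between RAB31 at 0.716 and RAB12 at 22.2 CPM per kilobase, while of the 5 most abundant genes RAB1B, RAB10, RAB7A and RAB1A lie above 0 and RAB13 lies below, at -0.27.

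Sites for miR-194-5p were counted by direction of change. In the longest annotated 3′ UTR, 10 of the 14 lower RAB genes had an 8mer or 7mer (71.4%), against 41.1% of all genes called lower. Of the 14 higher RAB genes 2 had one, RAB3D and RAB36 (14.3%), against 11.9% of all genes called higher. Of the 25 uncalled RAB genes 6 had one, namely RAB5A, RAB8B, RAB21, RAB22A, RAB39A and RAB43 (24.0%), against 16.4% of all uncalled genes. Over all tested, 18 of 53 RAB genes (34%) and 20.6% of the genes with an annotated 3′ UTR held such a site. A match describes the sequence only and is not a measured binding site.

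Among the tested members by class, the 4 with an 8mer in the longest 3′ UTR, RAB2A, RAB3B, RAB33B and RAB35, were all called lower. Their median log2 fold change was -0.54, beside -0.19 over the 572 tested genes with an 8mer there, of which 49.3% were lower. RAB38, with at most 1 count, holds an 8mer in its longest 3′ UTR and was not tested. RAB28 had an 8mer in another annotated 3′ UTR and no site in its longest. It was not called (log2 fold change -0.11 ± 0.04 SE, adjusted p = 0.0687). The 14 members whose best site was a 7mer had a median of -0.17, beside -0.11 over all such genes, and 6 were lower and 2 higher, near the 38.6% lower and 12% higher of all such genes. The 14 members with a 6mer alone had a median of 0.08, beside -0.01 over all such genes, with 3 lower and 3 higher, beside 25.2% lower and 19.1% higher of all such genes. The 21 members without a site had a median of 0.10, beside 0.04 over all such genes, with 9 higher and RAB15 lower, beside 22.3% higher and 13.3% lower of all such genes.

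Paralogs were then compared within each library as a log2 ratio of their CPM, over 29 pairs. In 3 pairs both genes were called in opposite directions in the main test. The ratio of RAB3B to RAB3D averaged -2.28 ± 0.17 in mimic and -1.30 ± 0.18 in control libraries (log2, SD, n = 4 each), a change of -0.98. The ratio of RAB6A to RAB6B averaged 5.05 ± 0.14 in mimic and 4.38 ± 0.07 in control libraries, a change of 0.67. The ratio of RAB10 to RAB13 averaged 0.50 ± 0.13 in mimic and -0.14 ± 0.09 in control libraries, a change of 0.64. These pairs share 75%, 77.8% and 63.8% of aligned coding bases. With the replicate block, which called 50.9% of all genes, RAB9A (0.16) and RAB9B (-0.22) were also called in opposite directions. So were RAB39A (-0.23) and RAB39B (0.26) in that fit, each value a log2 fold change.

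Further ratios without overlap were RAB2A to RAB2B with a change of -0.60, RAB22A to RAB31 with 0.60, RAB39A to RAB39B with -0.50 and RAB14 to RAB4A with -0.19. Within other pairs the change was small: -0.04 for RAB11A to RAB11B, 0.05 for RAB5B to RAB5C and 0.09 for RAB1A to RAB1B, with overlapping groups. In all, 15 of the 29 ratios did not overlap between groups. The share over other gene pairs was not computed, and 36.9% of all single genes tested did not overlap. A ratio can also separate where 1 gene alone was called, as for RAB3A to RAB3B, of which RAB3B alone was called. Each of the 15 had a two-sided exact permutation p of 0.0286, the smallest that 4 against 4 libraries allow, and an adjusted p of 0.0552 over the 29 pairs, so no ratio passed the threshold by this test. Pairs that share a gene are not independent of each other. With same-numbered libraries as pairs, the smallest p an exact sign-flip permutation allows is 0.125.

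The proteins that handle RABs were read in the same fit from lists of known members, by symbol. Of 8 genes for prenylation and recycling, 3 were higher and 2 lower, so 62.5% were called beside 38.1% of all genes tested, and their median log2 fold change was 0.06 beside 0.00. RABGGTB, the catalytic subunit of the enzyme that attaches the lipid anchor, averaged 87.9 ± 5.16 CPM in mimic and 64.0 ± 2.58 CPM in control libraries (log2 fold change 0.46 ± 0.05 SE, adjusted p = 2.10e-05). GDI2, a GDP dissociation inhibitor, was also higher (log2 fold change 0.14). CHML (-0.26) and CHM (-0.15), the escort proteins that present new RABs to that enzyme, were lower, and these 2 were the genes of the list with an 8mer or 7mer. Without mimic replicate 3, control replicate 1 or control replicate 4, 1 of the list was lower.

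Of 50 tested GEF genes, 11 were higher and 10 lower, 42.0% in all and near the 38.1% of all genes, and their median log2 fold change was 0.00. The 3 higher genes with the smallest p were TRAPPC2 (0.72) of the TRAPP complexes, which has a near-identical copy that could share its reads, MON1B (0.42), part of the exchange factor for RAB7, and DENND2D (0.44). The corresponding lower genes were TRAPPC13, listed as C5orf44 (-0.70), DENND4B (-0.57), of a family active on RAB10, and TRAPPC6B (-0.49), each a log2 fold change and each with an 8mer or 7mer. Of 38 tested GAP genes, 4 were higher and 10 lower, 36.8% in all and again near the 38.1% of all genes, with a median of -0.04. TBC1D1, which acts on the RABs of GLUT4 vesicles, averaged 27.2 ± 0.980 CPM in mimic and 46.3 ± 0.669 CPM in control libraries (log2 fold change -0.77 ± 0.04 SE, adjusted p = 1.00e-07). TBC1D5 (-0.39), linked to RAB7 and retromer, and TBC1D7 (-0.67), also a subunit of the TSC complex, followed in order of p, while TBC1D8 (0.31), RAB3GAP1 (0.16), a subunit of the RAB3 GAP, and TBC1D13 (0.17) were higher.

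Of 42 tested effector genes, 7 were higher and 16 lower, 54.8% in all beside 38.1% of all genes (18.3% higher and 19.9% lower), and their median log2 fold change was -0.09. With the replicate block 13 were higher, and the number lower in that fit is not given here. The block called 50.9% of all genes in either direction, so this count has no like share beside it. EEA1, the RAB5 effector that tethers early endosomes, averaged 148 ± 4.85 CPM in mimic and 83.6 ± 3.96 CPM in control libraries (log2 fold change 0.82 ± 0.04 SE, adjusted p = 5.89e-08). RABEP1 (0.18), another RAB5 effector, and GOLGA2 (0.21), the Golgi matrix protein that binds RAB1, were also higher. BICD2, which links RAB6 vesicles to dynein, averaged 33.8 ± 5.35 CPM in mimic and 81.5 ± 4.84 CPM in control libraries (log2 fold change -1.27 ± 0.10 SE, adjusted p = 5.15e-06). ANKFY1 (-0.55), a RAB5 effector, and RAB11FIP2 (-0.70), a RAB11 effector, were lower. An 8mer or 7mer was found in 7 of the 10 lower GEF genes, 6 of the 10 lower GAP genes and 9 of the 16 lower effector genes, and in 1 of the 22 higher genes of these 3 lists, beside 41.1% of all lower and 11.9% of all higher genes.

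Of 8 tested relatives outside the naming rule, 62.5% were called beside 38.1% of all genes. Of these 8, 3 were higher, RABL3 (0.26), RABL2B (0.18) and RASEF (0.23), and 2 lower, RABL5 (-0.31) and IFT27 (-0.20), which encode subunits of intraflagellar transport. No 8mer or 7mer was found in these 8. These counts changed with single libraries: 1 was higher without mimic replicate 2, control replicate 1 or control replicate 2, and 1 was lower without mimic replicate 4, control replicate 2 or control replicate 4.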

How the data were processed

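Total RNA of 8 libraries was sequenced after mRNA library preparation, and groups and replicate numbers came from the titles. The authors deposited raw counts per gene symbol. Tools listed in the submitters' processing notes are STAR, cutadapt 1.8.1, FastQC, edgeR 3.3 and R 3.2.3, with the build hg19. The sources used here do not give the counting program, gene models, strand setting or treatment of shared reads. Of the symbols, 3370 had no count. A floor of 3 counts equals 0.0635 to 0.0924 CPM and covers counting error only.

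The test was the robust quasi-likelihood test of edgeR 4.0.16 under R 4.3.3 on counts (TMM, filterByExpr, Benjamini-Hochberg over 14977 genes, threshold 0.05), on all 8 libraries with no covariate. CPM use TMM library sizes; log2 ratios of paralogs use a prior count of 2. In simulated counts (14977 genes drawn, 14891 tested), 50 genes were changed at each fold. Of these, 66% changed by 1.25-fold and 92% changed by 1.5-fold were recovered, and 3.76% of calls were false. In the data 38.1% of genes were called, a far larger share than was changed in the simulation. The Benjamini-Hochberg cutoff depends on that share, so these rates do not give the recovery in the comparison itself. Sites were searched in the longest protein-coding 3′ UTR of at least 50 bases in GENCODE 29 (GRCh38), joined by symbol; 20194 symbols matched directly, 1445 through RefSeq synonyms and 1707 not at all. Exon lengths came from the same annotation.

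Members named with full values were those called with an absolute log2 fold change of at least 0.3, the RAB3 and RAB6 genes (subfamilies called in both directions) and the 5 most abundant per length; other values were added after they were seen. From each list of regulators up to 3 genes per direction with the smallest p were named, except 1 gene that is not reported here. The members and lists were chosen with earlier results of these data known. Same-numbered libraries of the 2 groups deviated together (correlations 0.269, 0.337, 0.183 and 0.433, all above 0.1). Pairing by number was therefore fitted as an alternative, the replicate block, and not in the main test. Exchanged numbers correlated to a similar degree, at 0.285 and 0.255 within replicates 1 and 2 and 0.319 and 0.198 within 3 and 4. These values do not tell pairing by number from the split of replicates 1 and 2 against 3 and 4. Replicates differed beyond sampling noise (chi-square per degree of freedom 3.76 to 17.6) and each counted as 1 sample. Alternatives were RLE and upper-quartile factors, other count filters, DESeq2 1.42.0, limma-voom 3.58.1, the replicate block, replicates 1 and 2 or 3 and 4 alone, and leaving out each library. Mature miR-194 was not analysed here.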

Additional observations from a re-analysis of the deposited data

Results flagged for a closer look

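In each group of 4 libraries, the highest or lowest CPM of each tested RAB gene was compared with its nearest neighbour by Dixon's ratio, in 106 groups, and chance flags about 1 in 20 groups. There were 7 such libraries. RAB3B had 23.4 CPM in mimic replicate 3, below 26.0 to 26.4 CPM in the other mimic libraries. RAB5B had 239 CPM in mimic replicate 2, below 246 to 248 CPM in the others, and 201 CPM in control replicate 2, below 208 to 209 CPM in the others. RAB6A had 185 CPM in control replicate 3, above 180 to 181 CPM in the others. RAB6B had 6.57 CPM in mimic replicate 2, above 5.49 to 5.66 CPM in the others. RAB21 had 145 CPM in mimic replicate 2, above 134 to 136 CPM in the others. RAB40C had 40.6 CPM in mimic replicate 4, below 46.5 to 47.4 CPM in the others.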

How the results depend on the processing

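Of the 28 called RAB genes, 20 (8 higher, 12 lower) passed the threshold under all 17 alternatives, and none changed sign. The others were RAB1B, RAB2B, RAB6A, RAB11B, RAB17, RAB32, RAB36 and RAB39B, which kept their direction. RAB members called higher numbered 9 to 13 and lower 13 to 14 without 1 library. The replicate block called 7616 genes over the whole table, and changed no call of the 28. Scaling moved the median of all genes by under 0.01.

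With replicates 3 and 4 alone, 1 prenylation gene was lower and, of the relatives, 1 was higher and 1 lower; with replicates 1 and 2 alone, 2 GAP genes were higher and 1 relative was lower. With the replicate block 13 effectors were higher. Without 1 library, prenylation genes called lower numbered 1 to 2, relatives called higher 1 to 3 and relatives called lower 1 to 2. With 8mers alone, 4 of 14 lower (28.6%) and 0 of 14 higher members had a site, beside 10.3% of all lower and 1.89% of all higher genes. With 6mers added, 13 of 14 lower (92.9%), 5 of 14 higher (35.7%) and 14 of 25 uncalled members (56.0%) had one, beside 56.5%, 23.9% and 28.0% of all such genes. Over any annotated 3′ UTR, 10 of 14 lower, 2 of 14 higher and 7 of 25 uncalled members had an 8mer or 7mer, RAB28 being added. The shares of all such genes were 43.3%, 13.1% and 18.3%. The uncalled members whose log2 fold change crossed 0 were RAB5A at 0.00296 with upper-quartile factors, 0.0258 with replicates 1 and 2 alone and -0.0129 to 0.0142 without 1 library; RAB8A at 0.0068 with replicates 3 and 4 alone and -0.0276 to 0.00978 without 1 library; RAB21 at 0.00626 with replicates 1 and 2 alone; RAB34 at -0.0576 with replicates 3 and 4 alone; and RAB40B at -0.0711 to 0.00422 without 1 library. The cause was not tested. Genes under about 1 CPM, such as RAB6C, RAB25, RAB34, RAB40A and RAB43, rested on few reads, and changes there were not detectable at this depth unless large.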
